A study of Mus musculus with 8 samples.

Results

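The 10 genes described here are those of the chemokines, lymphotoxins and B cell survival factors of lymphoid follicles, Cxcl13, Ccl19, Cxcr5, Ccr7, Lta, Ltb, Ltbr, Tnfsf13b, Tnfsf13 and Tnfrsf13b. They were chosen by name, as genes known from bronchus-associated lymphoid tissue and from the survival of B lineage cells, and not by their values. Earlier results of these data were known when the list was made. They are 10 of the 52636 genes counted, and all 10 had enough reads to be among the 20546 genes tested. Whole-lung RNA of wild type male C57BL/6 mice was sequenced in 8 libraries, 2 for each of 4 groups. Control mice were given PBS. The COPD mice model, called COPD mice below, was given elastase from porcine pancreas (PPE) at 10 weeks of age and lipopolysaccharide (LPS) from 12 weeks, and each kind of mouse ate either the control diet or, from 8 weeks, a diet with 2% TJ-41, a herbal medicine also called hochuekkito. The age at RNA collection, the number of mice behind a library and whether lungs were pooled are not given in the sources used here, so p-values measure the spread between these libraries, which may in part be technical.

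Lymphoid follicles are built by a relay of signals. Lymphocytes display lymphotoxin, made from the Lta and Ltb products, and stromal cells receive it through the lymphotoxin beta receptor, encoded by Ltbr. These stromal cells then make chemokines, of which CXCL13 draws B cells through CXCR5, and CCL19 draws T cells and mature dendritic cells through CCR7. B cells and plasma cells that settle there are kept alive by BAFF, encoded by Tnfsf13b, and APRIL, encoded by Tnfsf13, and TACI, encoded by Tnfrsf13b, is a receptor for both. Such tissue is sparse in the healthy mouse lung and can form around the airways after lasting inflammation, and it is described in human COPD.

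Across the 10 genes, 0 were differentially expressed genes (DEGs) in any of the 6 comparisons of the design. A DEG had to have a false discovery rate (FDR) under 0.05 by edgeR's quasi-likelihood test, adjusted by Benjamini-Hochberg over all genes tested, together with a log2 fold change past 1 in either direction. With the diets averaged, COPD mice had 91 DEGs against control mice, 0.443% of all genes tested. An unadjusted p under 0.05 was found for 1 of the 10 genes, Cxcr5, a share near the 10.4% of all genes tested. The median log2 fold change of the 10 was 0.12, with 6 higher and 4 lower in COPD mice, and the median of all genes tested was -0.0017. DESeq2 and edgeR's exact test also called 0 of the 10, as did the fit without replicate 2 of COPD mice fed the control diet, a library that stood apart. Without replicate 1 of that group, which left that library as the only one of its group, 1 of the 10 was a DEG with the diets averaged, 2 were on the control diet and 2 were for the diet in COPD mice. The largest difference without regard to its error was that of Ccl19, at 1.08, or 0.27 without replicate 2 of COPD mice fed the control diet.

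The libraries held 18767295 to 20888042 counts. Values below are CPM, read counts relative to the library total and scaled with the TMM factors of edgeR, and 3 counts, the limit that a count of 0 allows, correspond to 0.153 to 0.162 CPM (counting error only). Replicate 2 of COPD mice fed the control diet stood apart from the other libraries. The SD over genes of the log2 difference between replicates was 0.838 in its group and 0.420 to 0.498 in the other 3 groups. Of 9 B cell markers, 6 were lowest in this library, as were 5 of 5 NK cell and 5 of 6 neutrophil markers, while 6 of 7 markers of migratory dendritic cells and 6 of 8 lung markers were highest there. It also held the highest or the lowest value of 7 of the 10 genes. The tissue label matched the lung markers, with Sftpc, a surfactant protein of alveolar epithelium, at 9494 to 25891 CPM, and markers of the thymus summed to at most 1.10 CPM. Markers of organized follicles ranged widely. Of the follicular dendritic cell markers, Madcam1 had 0 to 0.102 CPM and Coch 0.418 to 1.03 CPM, while Cr2, which B cells also express, had 8.76 to 29.9 CPM. Of the markers of high endothelial venules, Glycam1 had 0 to 0.102 CPM, Fut7 0.674 to 1.41 CPM, Ackr1 0.162 to 3.18 CPM and Chst4 2.03 to 9.11 CPM. The label of the gene list names what the genes are known for, and whether the lungs held follicles was not tested.

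**Figure D1:**
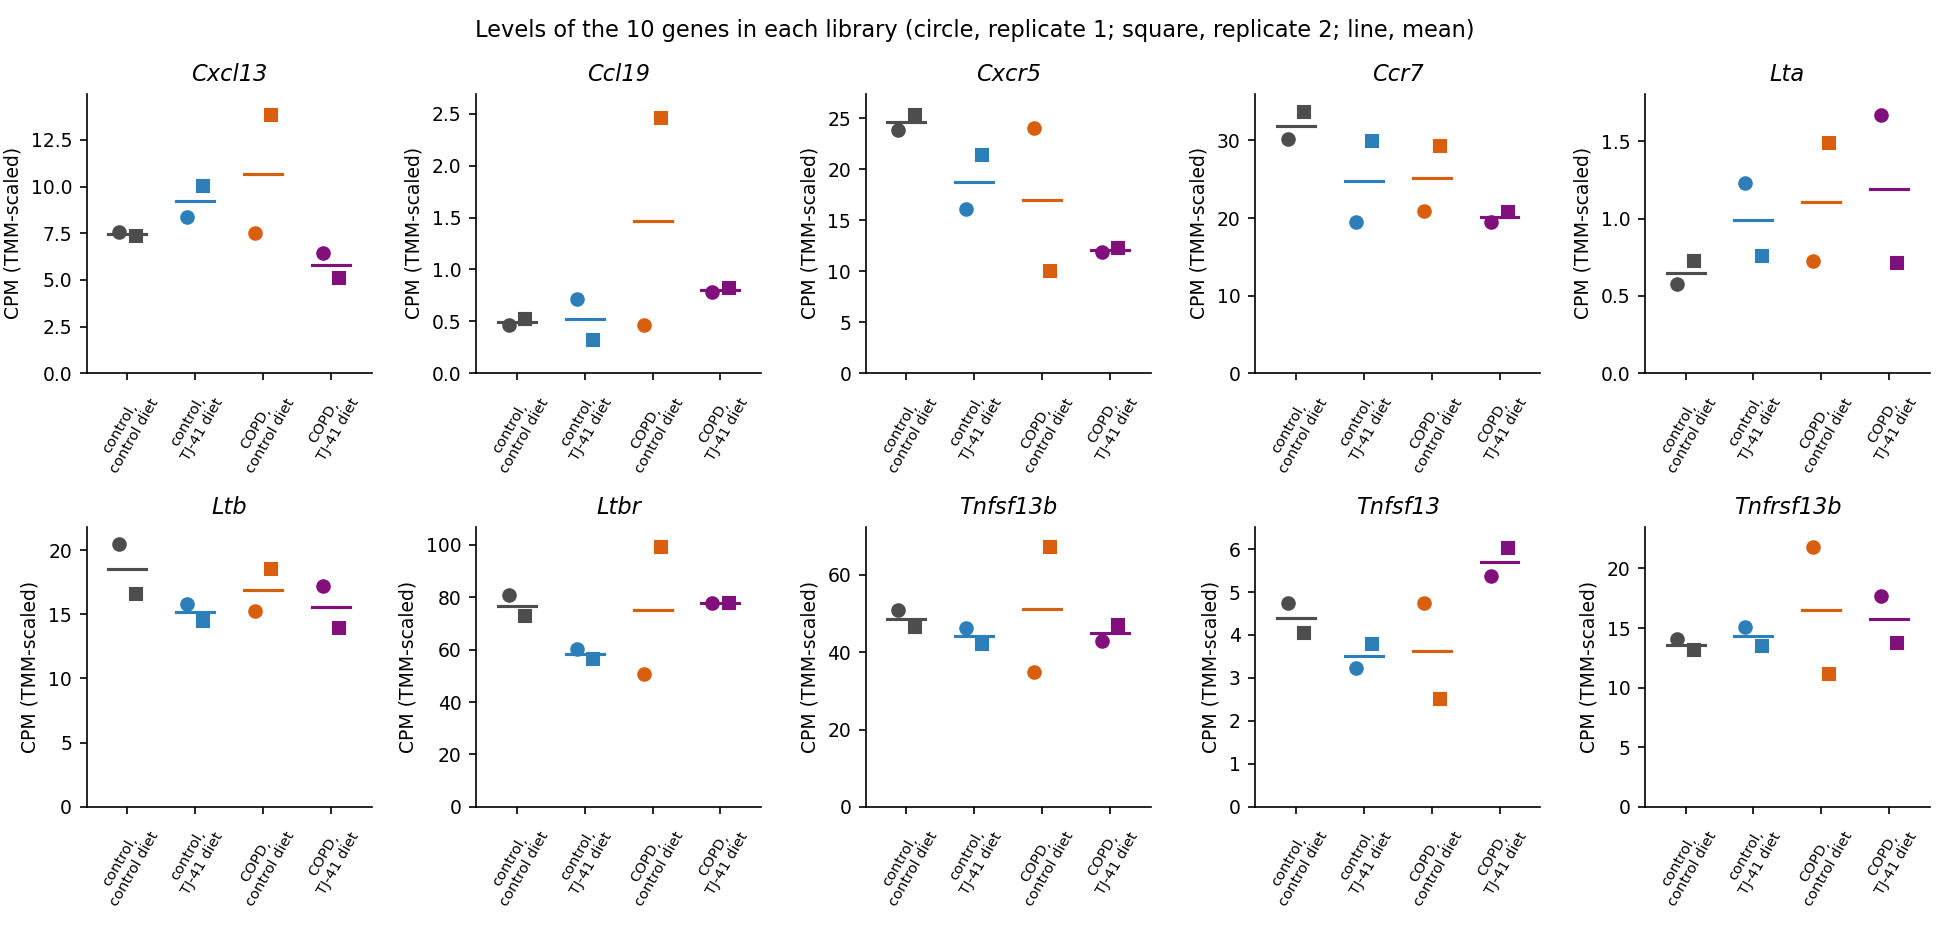
Level of each of the 10 genes in each library, in TMM-scaled CPM on linear axes from 0, for control mice and COPD mice on each diet (circle, replicate 1; square, replicate 2; line, mean of 2). The replicates of COPD mice fed the control diet lie far apart in most panels, with Ccl19 at 0.469 and 2.46 CPM and Cxcr5 at 24.0 and 10.04 CPM, and those of Cxcr5 on the TJ-41 diet lie close together at 11.9 and 12.3 CPM.

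To compare the genes with each other, levels were divided by the length of their exons (CPM per kb, over the union of annotated exons). The receptor gene Ltbr was highest, with a median of 32.0 CPM per kb over the 8 libraries (range 21.5 to 42.2). Its range did not overlap that of Ccr7, the next gene, at a median of 12.7 (9.85 to 17.0). Ltb followed with a median of 10.7 CPM per kb, then Tnfsf13b with 6.74, Cxcl13 with 6.55, Cxcr5 with 5.64 and Tnfrsf13b with 4.90. Tnfsf13 had a median of 2.68 CPM per kb, and its highest library, at 3.68, lay below the lowest of Tnfrsf13b, at 3.94. The lowest 2 genes were Ccl19, with a median of 0.712 CPM per kb, and Lta, with 0.537. Of the 9 pairs of neighbours in this order, 7 had overlapping ranges over the 8 libraries. Of these 7 pairs, Ltb was above Tnfsf13b in 8 of 8 libraries, and the other 6 kept the order of their medians in 3 to 7 of the 8. Both lymphotoxin subunit genes were thus measured at very different levels, Ltb above Lta, as CPM per kb, in every library. The homeostatic chemokine Cxcl13 was above Ccl19 in the same way, but the reads of Ccl19 may be split between near copies.

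**Figure D2:**
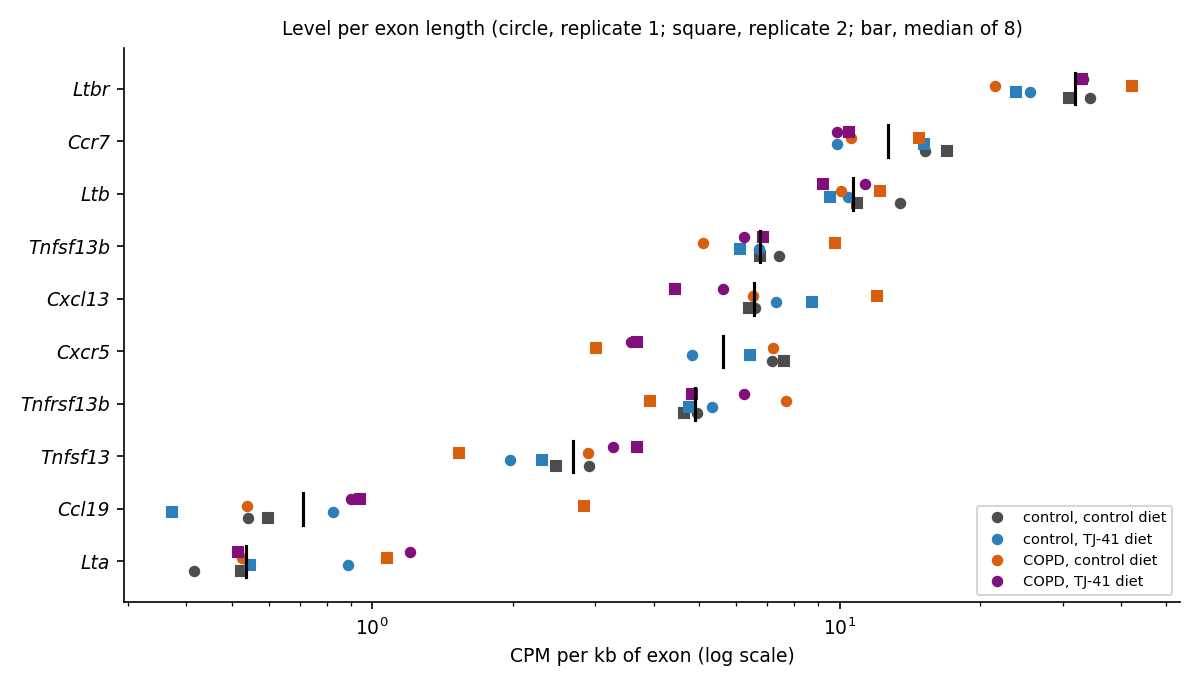
Level of the 10 genes per exon length in the 8 libraries, in CPM per kb of exon on a log scale, with colours for the 4 groups, circles and squares for replicates 1 and 2, and a bar at the median of 8. Ltbr stands above the rest at a median of 32.0, and Ccl19 and Lta lie lowest at medians of 0.712 and 0.537.

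Ccl19 (ENSMUSG00000071005), on chromosome 4 of GRCm38 from 42754525 to 42756577 on the minus strand, lies in a region with several near copies of itself, and 52.0% of its 50-base exon sequences also occur in 4 other genes. Their coding sequences or copies were 98.5% to 99.7% identical to its own 327 coding bases. A stretch of 60 bases of the coding sequence, bases 59 to 118, is shown because it holds positions that tell a copy apart. Capitals mark bases that differ from Ccl19.
Ccl19: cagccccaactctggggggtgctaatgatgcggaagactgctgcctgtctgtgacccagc
Gm2564: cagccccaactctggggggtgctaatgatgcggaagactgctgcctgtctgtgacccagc
Ccl19-ps1: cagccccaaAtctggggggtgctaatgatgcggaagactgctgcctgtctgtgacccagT
Gm2564, annotated as protein coding, had the same 60 bases as Ccl19, as did the pseudogenes Ccl19-ps3 and Gm12407, and Ccl19-ps1 differed at 2 of the 60. How the authors' counting treated reads that match several genes is not given in the sources used here, so the values of Ccl19 are uncertain.

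Among the chemokine ligands, Ccl19 had 0.470 and 0.519 CPM in control mice on the control diet and 0.716 and 0.324 CPM on the TJ-41 diet. In COPD mice it had 0.469 and 2.46 CPM on the control diet and 0.782 and 0.817 CPM on the TJ-41 diet. These values rest on 9, 10, 14 and 6 counts in control mice and on 9, 48, 15 and 16 counts in COPD mice. Only replicate 2 of COPD mice fed the control diet was clearly higher. Both libraries of COPD mice fed TJ-41 were just above the highest of control mice, at 0.716 CPM. The 4 libraries of COPD mice overlapped the 4 of control mice. The log2 fold change with the diets averaged was 1.08 (SE 0.53, 95% interval -0.11 to 2.27, adjusted p = 0.521 in edgeR's quasi-likelihood test, Benjamini-Hochberg). It was 0.27 without replicate 2 and 1.45 without replicate 1 of COPD mice fed the control diet, and the latter was a DEG (adjusted p = 0.0192, edgeR, Benjamini-Hochberg, in a range of 0.0192 to 0.981 over all alternatives). When Ccl19 and its 4 copies were summed, the counts were 103, 94, 84 and 67 in control mice and 84, 296, 153 and 144 in COPD mice. The sum was higher in 3 of the 4 libraries of COPD mice than in the highest of control mice, at 103, and its log2 fold change was 0.94 (SE 0.34, adjusted p = 0.369 by the same edgeR test, Benjamini-Hochberg).

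Cxcl13 (ENSMUSG00000023078), on chromosome 5 from 95956951 to 95961068 on the plus strand, encodes the chemokine that draws B cells into follicles. It had 7.58 and 7.36 CPM in control mice on the control diet and 8.39 and 10.04 CPM on the TJ-41 diet. In COPD mice it had 7.50 and 13.8 CPM on the control diet and 6.46 and 5.11 CPM on the TJ-41 diet. The highest and the lowest of the 8 values thus both came from COPD mice, on different diets. With the diets averaged, its log2 fold change was -0.079 (SE 0.22, 95% interval -0.58 to 0.42, adjusted p = 0.906 in edgeR's quasi-likelihood test, Benjamini-Hochberg). On the control diet alone the log2 fold change was 0.51 (SE 0.31) and on the TJ-41 diet -0.67 (SE 0.31), with adjusted p of 0.786 and 0.765 by the same edgeR test, Benjamini-Hochberg.

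Cxcr5 (ENSMUSG00000047880), on chromosome 9 from 44511787 to 44561877 on the minus strand, encodes the receptor by which B cells and follicular helper T cells follow CXCL13. It had 23.8 and 25.4 CPM in control mice on the control diet and 16.1 and 21.4 CPM on the TJ-41 diet. In COPD mice it had 24.0 and 10.04 CPM on the control diet and 11.9 and 12.3 CPM on the TJ-41 diet. In COPD mice, 3 of the 4 libraries were below all 4 of control mice, and replicate 1 on the control diet was not. The log2 fold change with the diets averaged was -0.58 (SE 0.25, 95% interval -1.14 to -0.021), which had an unadjusted p of 0.0436 and did not pass the adjustment (adjusted p = 0.468, edgeR's quasi-likelihood test, Benjamini-Hochberg). The values were -0.53 (SE 0.35) on the control diet and -0.63 (SE 0.35) on the TJ-41 diet. Without replicate 1 of COPD mice fed the control diet, the control-diet value was -1.30 and Cxcr5 was a DEG (adjusted p = 0.00822, edgeR, Benjamini-Hochberg, in a range of 0.00822 to 1.00 over all alternatives), and without replicate 2 it was -0.032. The gene shares 110 exon bases with Bcl9l on the opposite strand, and the strand setting of the counts is not given in the sources used here.

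The summed B cell markers were lower in the same COPD libraries. The 9 B cell markers (Ms4a1, Cd79a, Cd79b, Pax5, Blk, Cd22, Fcrla, Spib and Bank1) summed to 346 to 359 CPM in control mice. In COPD mice they summed to 369 and 185 CPM on the control diet and to 248 and 228 CPM on the TJ-41 diet, and the highest and the lowest of these 4 libraries were the same as for Cxcr5. All 9 had a log2 fold change below 0 with the diets averaged, with a median of -0.49. An unadjusted p under 0.05 was found for 2 of them, beside 10.4% of all genes tested. As DEGs, 0 were called, beside 0.443%. Single markers did not all follow the sum. Spib was highest of the 8 libraries in replicate 2 of COPD mice fed the control diet, at 29.1 CPM. As a percentage of the B cell marker sum, Cxcr5 was 4.63% to 7.15% in control mice and 4.81% to 6.50% in COPD mice, so that the groups overlapped. In whole-lung RNA, fewer cells of a type and less RNA per cell cannot be told apart.

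**Figure D3:**
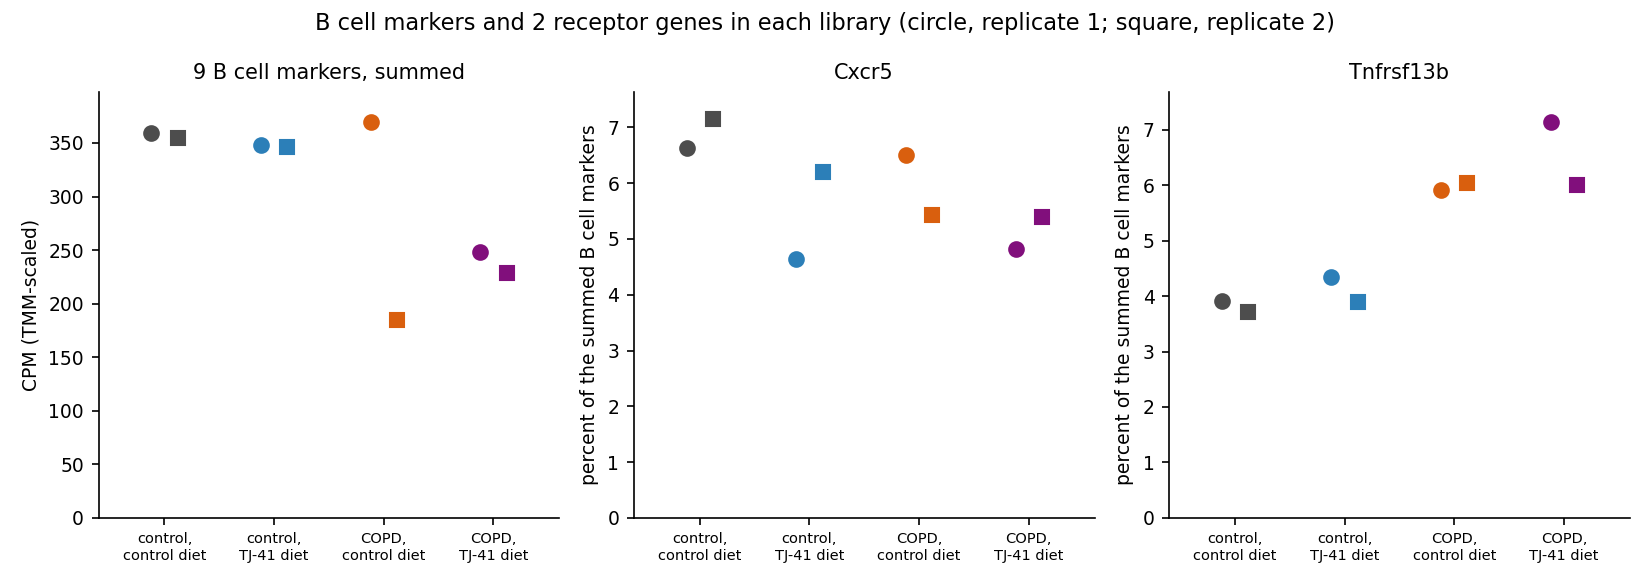
Summed level of 9 B cell markers in TMM-scaled CPM (left), and Cxcr5 (middle) and Tnfrsf13b (right) as a percentage of that sum, in each of the 8 libraries on axes from 0 (circle, replicate 1; square, replicate 2). Cxcr5 overlaps between control mice (4.63% to 7.15%) and COPD mice (4.81% to 6.50%), and Tnfrsf13b does not (3.71% to 4.34% and 5.91% to 7.15%).

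Ccr7 (ENSMUSG00000037944), on chromosome 11 from 99144196 to 99155077 on the minus strand, encodes the receptor for CCL19 on naive T cells, B cells and mature dendritic cells. It had 30.2, 33.6, 19.5 and 30.0 CPM in control mice and 20.9, 29.3, 19.5 and 20.7 CPM in COPD mice, each in the order control diet and then TJ-41 diet. The groups overlapped, and 3 of the 4 libraries of control mice were above all 4 of COPD mice. The log2 fold change was -0.32 with the diets averaged (SE 0.17, adjusted p = 0.566 in edgeR's quasi-likelihood test, Benjamini-Hochberg), -0.34 on the control diet and -0.30 on the TJ-41 diet. Of 2 cell types that express Ccr7, the summed markers overlapped between the groups. Those of migratory dendritic cells summed to 63.2 to 85.4 CPM in control mice and 59.5 to 177 CPM in COPD mice, and T cell markers to 121 to 130 CPM and 123 to 160 CPM. Single T cell markers differed more than their sum. Of the 10, 9 had a log2 fold change above 0 with the diets averaged, 6 of them with an unadjusted p under 0.05. Cd2, the 1 below 0, also had such a p, beside 10.4% of all genes tested. As DEGs, 0 were called, beside 0.443%. All 4 libraries of COPD mice were above all 4 of control mice for Cd3g and Cd6 and below them for Cd2. Groups did not overlap either for 6.78% of all genes tested. The part of these cell types in the result was not tested.

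The lymphotoxin genes Lta and Ltb lie close together on chromosome 17 on either side of Tnf, Ltb from 35194439 to 35196320 on the plus strand and Lta from 35203165 to 35205351 on the minus strand. Ltb ranged from 14.5 to 20.4 CPM in control mice and from 13.9 to 18.5 CPM in COPD mice. The groups overlapped almost fully, and its log2 fold change of -0.046 had the smallest error of the 10 genes (SE 0.15, 95% interval -0.39 to 0.30), so that a difference beyond 1 lay outside its interval. Lta ranged from 0.575 to 1.23 CPM in control mice and from 0.715 to 1.67 CPM in COPD mice, with a log2 fold change of 0.51 (SE 0.40, 95% interval -0.38 to 1.40). Its interval thus left room for a difference beyond 1. Ltbr (chromosome 6, from 125306571 to 125313885, minus strand) had 56.3 to 80.9 CPM in control mice and 50.7, 99.3, 78.0 and 77.7 CPM in COPD mice. Its lowest and highest values were the 2 replicates of COPD mice fed the control diet, and its log2 fold change with the diets averaged was 0.19 (SE 0.19), or -0.084 without replicate 2 and 0.40 without replicate 1 of that group. The adjusted p of these 3 genes were 0.922 for Ltb, 0.670 for Lta and 0.723 for Ltbr (edgeR's quasi-likelihood test, Benjamini-Hochberg).

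Of the survival factors, Tnfsf13b (BAFF, chromosome 8 from 10006467 to 10039072, plus strand) had 42.1 to 50.9 CPM in control mice. In COPD mice it had 35.0 and 67.3 CPM on the control diet and 42.8 and 47.1 CPM on the TJ-41 diet. The spread between the replicates on the control diet exceeded every difference between group means, and the log2 fold change was 0.049 (SE 0.19, 95% interval -0.38 to 0.48, adjusted p = 0.933 in edgeR's quasi-likelihood test, Benjamini-Hochberg). Tnfsf13 (APRIL, chromosome 11 from 69682846 to 69685784, minus strand) had 4.75 and 4.05 CPM in control mice on the control diet and 3.22 and 3.78 CPM on the TJ-41 diet. In COPD mice it had 4.74 and 2.51 CPM on the control diet and 5.37 and 6.03 CPM on the TJ-41 diet. Both libraries of COPD mice fed TJ-41 were thus above all 6 others. The log2 fold change was 0.21 (SE 0.24) with the diets averaged, -0.28 (SE 0.34) on the control diet and 0.70 (SE 0.33) on the TJ-41 diet, with adjusted p of 0.754, 0.921 and 0.773 (edgeR's quasi-likelihood test, Benjamini-Hochberg).

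For Tnfsf13, 57.3% of the 50-base sequences also occur elsewhere, mainly in Tnfsfm13, a gene on the same strand that covers 983 of its exon bases. The reads of both genes together were 155, 140, 146 and 143 counts in control mice and 165, 123, 183 and 198 counts in COPD mice. The 2 libraries of COPD mice fed TJ-41 were again the highest, but the log2 fold change of the sum on the TJ-41 diet was 0.38 and that on the control diet -0.050, both nearer to 0 than for Tnfsf13 alone. Tnfsf13 also shares 221 exon bases with Tnfsf13os on the opposite strand, and the strand setting is not given in the sources used here.

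Tnfrsf13b (TACI, chromosome 11 from 61126755 to 61149372, plus strand) had 13.2 to 15.1 CPM in control mice. In COPD mice it had 21.8 and 11.2 CPM on the control diet and 17.7 and 13.7 CPM on the TJ-41 diet. The libraries of COPD mice lay on both sides of those of control mice, and the log2 fold change was 0.21 (SE 0.21, adjusted p = 0.732 in edgeR's quasi-likelihood test, Benjamini-Hochberg). Set against the B cell markers, its level was 3.71% to 4.34% of their sum in control mice and 5.91% to 7.15% in COPD mice, and the groups did not overlap. This percentage was looked at after the values were known and is a description. Tnfrsf13c, which encodes the BAFF receptor of mature B cells, was 1.96% to 2.37% of that sum in control mice and 1.43% to 3.08% in COPD mice. Plasma cell markers summed to 540 to 668 CPM in control mice and to 800 to 1431 CPM in COPD mice. Jchain and Xbp1 made up most of it. Jchain had 43.3 to 201 CPM in control mice and 313 to 894 CPM in COPD mice, without overlap. Xbp1 overlapped, at 261 to 301 CPM and 260 to 307 CPM. Of the 8 markers, 4 had an unadjusted p under 0.05, all higher in COPD mice, beside 10.4% of all genes tested. As a DEG, 1 was called, beside 0.443%. The part of plasma cells in the result was not tested.

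**Figure D4:**
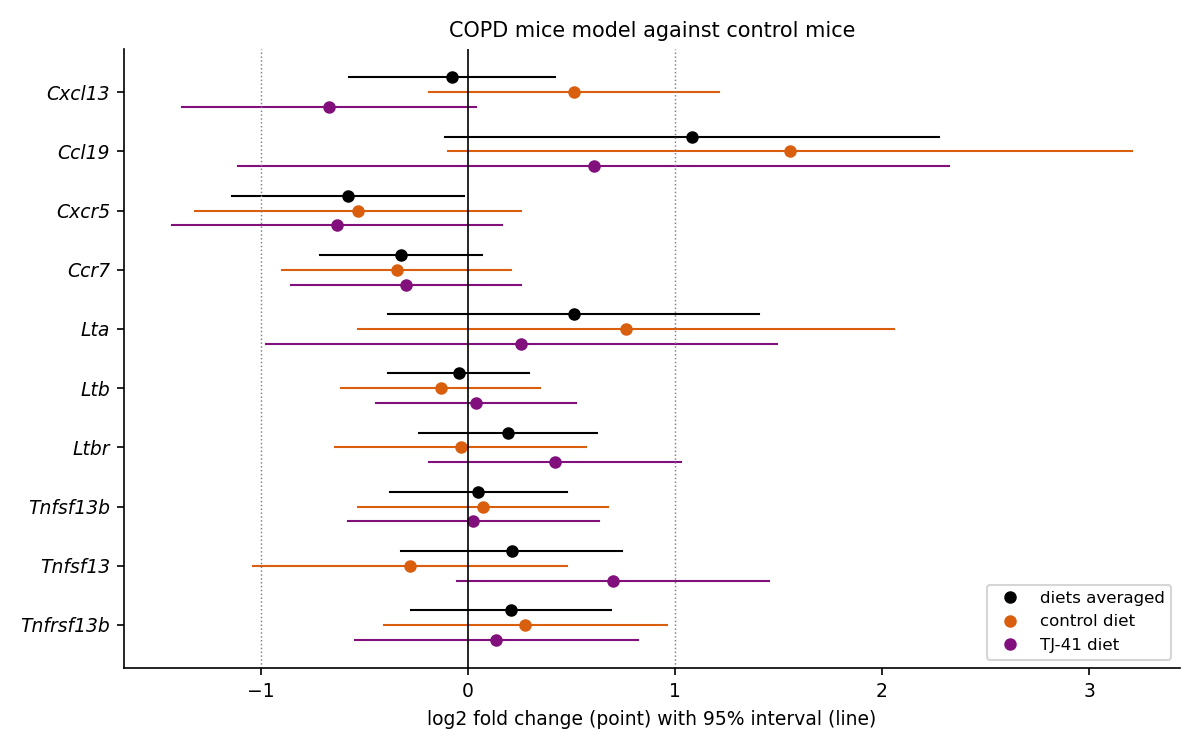
Log2 fold change of the 10 genes in COPD mice against control mice, with the diets averaged (black) and on each diet (orange, control diet; purple, TJ-41 diet), with 95% intervals from edgeR's quasi-likelihood fit; dotted lines mark a log2 fold change of 1 in either direction. The interval of Cxcr5 with the diets averaged ends just below 0, at -0.021, and the other 29 intervals include 0.

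The comparison was also made within each diet, where groups hold 2 libraries each. On the control diet 0 of the 10 genes had an unadjusted p under 0.05, beside 7.70% of all genes tested, and 0 were DEGs, beside 0.122%. On the TJ-41 diet 0 had an unadjusted p under 0.05, beside 6.56% of all genes tested, and 0 were DEGs, beside 0.0779%. The direction was the same on both diets for Ccl19, Lta, Tnfsf13b and Tnfrsf13b, which were higher, and for Cxcr5 and Ccr7, which were lower, and none of these passed the test. It was opposite for Cxcl13, Tnfsf13, Ltb and Ltbr. None of the 10 genes had all 4 libraries of COPD mice on one side of all 4 of control mice, while 6.78% of all genes tested did.

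For the diet, the question was whether TJ-41 moved these genes in control mice or in COPD mice. In control mice 0 of the 10 genes were DEGs between the diets, beside 0% of all genes tested, and 0 had an unadjusted p under 0.05, beside 1.64%. The log2 fold changes ran from -0.40 to 0.61. In COPD mice 0 were DEGs, beside 0.00487% of all genes tested, and 1 had an unadjusted p under 0.05, Cxcl13, beside 4.10%. For Cxcl13 both libraries on the TJ-41 diet lay below both on the control diet, at 5.78 ± 0.957 CPM (SD, n = 2) against 10.7 ± 4.48 CPM (SD, n = 2) on the control diet. The log2 fold change was -0.88 (SE 0.31, 95% interval -1.59 to -0.17), with an unadjusted p of 0.0201 and an adjusted p of 0.991 in edgeR's quasi-likelihood test, Benjamini-Hochberg. Without replicate 1 of COPD mice fed the control diet it was -1.25 and a DEG (adjusted p = 0.0186, edgeR, Benjamini-Hochberg, in a range of 0.0186 to 1.00 over all alternatives), and without replicate 2 it was -0.38.

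In control mice Cxcl13 had 7.47 ± 0.150 CPM on the control diet and 9.22 ± 1.17 CPM on the TJ-41 diet (SD, n = 2 each), a log2 fold change of 0.30 (SE 0.31). The difference between the 2 diet effects was -1.19 for Cxcl13 (SE 0.44, unadjusted p 0.0248) and 0.98 for Tnfsf13 (SE 0.47, unadjusted p 0.0674), and neither passed the adjustment (adjusted p = 0.999 for both, edgeR's quasi-likelihood test, Benjamini-Hochberg). For this difference, 1 of the 10 genes had an unadjusted p under 0.05, beside 3.27% of all genes tested, and 0 were DEGs, beside 0%. Tnfsf13 had a log2 fold change of 0.65 on the TJ-41 diet in COPD mice (SE 0.33, adjusted p = 0.991 by the same edgeR test, Benjamini-Hochberg). It became 1.18 and a DEG without replicate 1 of COPD mice fed the control diet (adjusted p = 0.0451, edgeR, Benjamini-Hochberg, in a range of 0.0451 to 1.00 over all alternatives), and 0.26 without replicate 2.

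**Figure D5:**
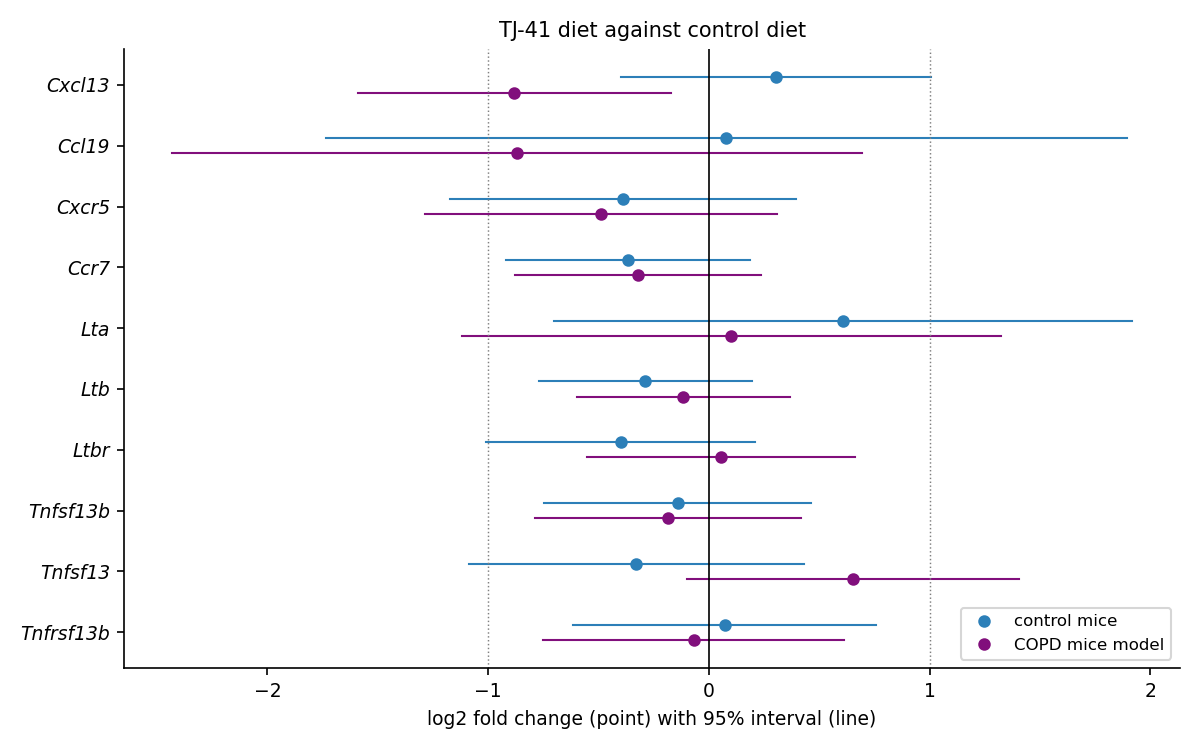
Log2 fold change of the 10 genes in mice fed TJ-41 against those fed the control diet, for control mice (blue) and COPD mice (purple), with 95% intervals from edgeR's quasi-likelihood fit. The interval of Cxcl13 in COPD mice, -1.59 to -0.17, does not include 0, and the other 19 do.

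Over the 8 libraries, the genes did not move as one set. Pearson's r of log2 CPM between pairs of the 10 genes ran from -0.92 to 0.87, with a median of 0.15, and 23 of the 45 pairs were positive. The closest pair was Ltbr and Tnfsf13b (r = 0.87, n = 8 libraries), and Cxcl13 and Tnfsf13 were the most opposed (r = -0.92, n = 8 libraries). These points share the library that stood apart, so the correlations are descriptions. Among genes whose mean was 1 CPM or more, Cxcr5 was most like Trim34a (r = 0.96) and Fcrl1 (r = 0.96), the latter a surface receptor of B cells, and Tnfrsf13b was most like Cd274 (r = 0.97). Ccl19 was most like Arhgdig (r = 0.996) and Ltbr most like Mgp (r = 0.99). Ccr7 was most like Elavl1 (r = 0.996) and Lta most like Serpina10 (r = 0.96) and then Csf2 (r = 0.95), each over 8 libraries.

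Other genes of the pathway were taken from 4 lists with 38 genes, of which 36 were tested. With the diets averaged, 1 was a DEG, Ccl20, where 0.443% of all genes tested were. An unadjusted p under 0.05 was reached by 11 of them, 8 higher and 3 lower, and by 10.4% of all genes tested. The median log2 fold change of the 36 was 0.069, and 8 of them had groups that did not overlap, as did 6.78% of all genes tested. By the false discovery rate alone, which 0.506% of all genes tested passed, Vcam1 was added. None of the 8 genes of the alternative NF-kappa-B route, which carries the signal of the lymphotoxin beta and BAFF receptors, had an unadjusted p under 0.05, and their median was -0.023. Since these lists were put together with results of the same libraries known, their counts are descriptions.

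Ccl20, which encodes the ligand of CCR6 on B cells, some T cells and dendritic cells, rose from 0.627, 0.830, 1.18 and 1.62 CPM in control mice to 4.32, 9.01, 2.81 and 2.30 CPM in COPD mice. All 4 libraries of COPD mice lay above all 4 of control mice. The log2 fold change was 2.03 (SE 0.31, adjusted p = 0.0272 in edgeR's quasi-likelihood test, Benjamini-Hochberg), and 3.18 on the control diet (adjusted p = 0.0465 by the same edgeR test, Benjamini-Hochberg). On the TJ-41 diet the value was 0.87 (SE 0.42, adjusted p = 0.773 by the same edgeR test, Benjamini-Hochberg), and Ccl20 was not a DEG. With the diets averaged it was not a DEG in the fits that left out either replicate of either group of control mice or replicate 1 of COPD mice fed TJ-41, where it ran from 1.92 to 2.14 with adjusted p of 0.111 to 0.205 (edgeR, Benjamini-Hochberg, 6.64e-06 to 0.205 over all alternatives). On the control diet it was a DEG neither in the 6 fits that left out a library other than those of these COPD mice nor with a replicate block (3.14), a filter on the mean at 1 CPM (3.18) or only the 2 groups compared (3.18), with adjusted p of 0.0552 to 0.476 in edgeR, Benjamini-Hochberg (4.31e-07 to 0.476 over all alternatives).

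Vcam1, the adhesion molecule of activated endothelium and lymphoid stroma, had 147 to 169 CPM in control mice and 93.3 to 97.5 CPM in COPD mice. The groups were far apart, but the log2 fold change of -0.76 (SE 0.11, adjusted p = 0.0184 in edgeR's quasi-likelihood test, Benjamini-Hochberg) did not reach the limit of 1. It ran from -0.79 to -0.72 when single libraries were left out, and the adjusted p of Vcam1 was not under 0.05 in every alternative. The next largest values with an unadjusted p under 0.05 were 1.32 for Tnfrsf17 (BCMA, a survival receptor of plasma cells, SE 0.54), 1.03 for Tnfsf11 (RANK ligand, SE 0.33) and 0.90 for Cxcl12 (SE 0.21), and, in the other direction, -0.64 for Tnfrsf13c (SE 0.19) and -0.58 for Ackr4, a scavenger of CCL19 and CCL21 (SE 0.19). None of these 5 passed the adjustment, with adjusted p of 0.443, 0.291, 0.128, 0.240 and 0.296 in edgeR's quasi-likelihood test, Benjamini-Hochberg. Without replicate 1 of COPD mice fed the control diet Tnfsf11 was a DEG at 1.12 (adjusted p = 0.0391, edgeR, Benjamini-Hochberg, 0.0391 to 0.776 over all alternatives), and Cxcl12 was one in the fit that lacked replicate 2 of control mice fed the control diet, at 1.22 (adjusted p = 0.0264, edgeR, Benjamini-Hochberg, 0.00111 to 0.555 over all alternatives).

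Promoters from RefSeq (GRCm38.p6, 250 bases before to 50 after each start) were searched for the kappa-B consensus of 10 bases on both strands, since NF-kappa-B is known to act at several of these genes. Of the 9 promoters found for 8 of the 10 genes, 1 held a match, that of Ltb, which is 11.1%, and 7 of 35 promoters of the pathway genes did (20.0%), beside 4.51% of all 32851 promoters. The 7 promoters belonged to fewer genes, since several were alternative starts of Nfkb2, whose windows overlap in part. The 100 bases before the start of Ltb, the gene among the 10 with a match, and of Ccl20, the pathway gene that was a DEG, are shown with the match in capitals, on the plus strand at chr17:35194407-35194506 and chr1:83116666-83116765.
Ltb: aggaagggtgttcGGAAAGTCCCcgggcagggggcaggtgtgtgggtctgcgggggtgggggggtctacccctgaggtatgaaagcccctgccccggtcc
Ccl20: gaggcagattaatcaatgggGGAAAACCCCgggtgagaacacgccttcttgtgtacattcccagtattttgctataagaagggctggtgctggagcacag
The match starts 87 bases before the start site of Ltb and 80 bases before that of Ccl20. A match is a description of the letters, and promoters of Cxcr5 and Ccr7 were not analysed here.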

How the data were processed

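The authors deposited whole-number read counts per Ensembl gene for each of the 8 libraries, without normalization. Per the labels, the submitters' processing notes name HISAT2, edgeR and the mm10 build, and the study's methods name CLC Genomics Workbench. The counting program, annotation, strand setting and treatment of reads that match several genes are not given in the sources used here. Groups and replicate numbers came from the sample labels, in which TJ41 and TJ4 were both read as TJ-41. Gene names, coordinates and exon lengths came from GENCODE M21, which held 52489 of the 52636 gene identifiers. A second identifier of Ccl19, on a scaffold, had 0 counts and was not used.

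The tests ran in R 4.3.3 with edgeR 4.0.16. The filterByExpr function set the genes tested (minimum count 10, minimum total 15). Counts were scaled by TMM and fitted over all 4 groups with the quasi-likelihood test, which left 4 residual degrees of freedom. The SE of a log2 fold change was its size divided by the square root of F, and 95% intervals used 9.13 degrees of freedom. Log2 CPM used a prior count of 1. The steps were tested on simulated data. Alternatives were DESeq2 1.42.0, other scaling, filters and tests, a replicate block and leaving out each library; summing Ccl19 and Tnfsf13 with genes of the same sequence was added after the data were seen. Replicates differed by 11.5 to 84.6 times the variance of counting alone, so none was a copy. Replicate numbers did not pair the libraries.

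The 10 genes, the pathway and marker lists and the tests were chosen with earlier results of these data known. Of the marker genes chosen, 2 are not reported here, and the marker sums, counts and percentages leave them out. Named were all 10 genes, pathway genes that were DEGs, the 4 largest rises and 4 largest falls among pathway genes with an unadjusted p under 0.05 (3 falls were found), the genes most alike in pattern, and markers that bear on a result. Jchain, Xbp1 and Fcrl1 are named from the marker lists or by likeness.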

Additional observations from a re-analysis of the deposited data

How the results depend on the processing

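Outside the fits that left out a library, all 221 alternative values compared kept their direction and stayed on the same side of the threshold. They covered all 10 genes with the diets averaged, and only some of Cxcl13, Ccl19, Cxcr5 and Tnfsf13 in each other comparison. Those by the false discovery rate alone reuse the main log2 fold changes, so their direction could not differ. In all 6 comparisons, 0 of the 10 genes were DEGs under any of these alternatives. The number of DEGs over all genes did depend on the method. For COPD mice against control mice with the diets averaged, 91 became 245 with DESeq2, 278 with all genes of at least 1 count and 319 with edgeR's exact test. On the control diet 25 became 171, 147 and 210, and on the TJ-41 diet 16 became 125, 89 and 137, or 248 with only these groups fitted. For the diet in control mice 0 became 10 with DESeq2, 6 with the exact test and 5 with only these groups. For the diet in COPD mice 1 became 12, 2 and 6 under DESeq2, all genes and the exact test, and 0 with a replicate block or with only these groups. For the difference between diet effects 0 became 17 with DESeq2 and 6 with all genes. The replicate numbers shared only a label across groups (r of replicate differences -0.23 to 0.096), and beside Ccl20, which was no DEG on the control diet at 3.14, the block changed no other call of a named gene. The cause of these changes was not tested.

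Leaving out single libraries gave 0 to 1 DEGs among the 10 genes with the diets averaged, 0 to 2 on the control diet and 0 to 2 for the diet in COPD mice, all from the fit without replicate 1 of COPD mice fed the control diet, where the remaining replicate is assumed to vary like the other groups. DEGs over all genes ran from 15 to 873 with the diets averaged, 3 to 1343 on the control diet, 2 to 168 on the TJ-41 diet, 0 to 728 for the diet in COPD mice and 0 to 14 for the difference. Log2 fold changes crossed 0 for 6 genes with the diets averaged: -0.33 to 0.11 for Cxcl13, -0.13 to 0.038 for Ltb, -0.084 to 0.40 for Ltbr, -0.22 to 0.25 for Tnfsf13b, -0.052 to 0.41 for Tnfsf13 and -0.074 to 0.42 for Tnfrsf13b. On the control diet they ran from -0.074 to 2.29 for Ccl19 and from -0.81 to 0.11 for Tnfsf13.

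By longest transcript in place of all exons, the level in control mice on the control diet was 36.5 CPM per kb for Ltbr, 10.2 for Tnfsf13b, 8.64 for Cxcr5, 5.33 for Tnfrsf13b and 0.640 for Ccl19, beside 32.6, 7.09, 7.38, 4.80 and 0.570. Counts were fewest for Ccl19, at 6 to 48 a library, and for Lta, at 11 to 32. Their SE with the diets averaged, 0.53 and 0.40, were larger than the 0.15 of Ltb, and the parts of depth and of the spread between replicates in them were not separated.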
